A study of Mus musculus with 6 samples.

Results

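The genes described here encode nuclear-encoded subunits of the mitochondrial respiratory chain and of ATP synthase. They were taken from the deposited count table by symbol alone, as every row named in the Nduf a, b, c, s or v series, Sdha to Sdhd, the Uqcr series, the Cox4 to Cox8 subunits or the Atp5 series, so measured values played no part in the choice. This gave 83 of 45777 genes: 36 of complex I, 4 of complex II, 8 of complex III, 18 of complex IV and 17 of complex V. Ndufa4 was counted with complex I by its name, although its protein is now placed in complex IV. RNA came from the anterior cingulate cortex, on the midline of the frontal brain, of inbred BALB/c mice. Of the 6 libraries, 3 are of non-stress mice and 3 of mice that had 5 days of social defeat stress, in which a dominant animal attacks and subdues the mouse. No age is given, and nothing in the labels ties each library to its own animal. The p-values therefore describe the spread among these libraries alone, and that spread could be technical.

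The respiratory chain passes electrons from NADH (complex I) and succinate (complex II) through complex III to oxygen at complex IV, and the proton gradient built on the way drives ATP synthase, complex V. In cortex this route makes most of the ATP that neurons use for ion pumping and synaptic transmission. All complexes except complex II also contain subunits encoded by the mitochondrial genome, which are outside the rule above. Some nuclear-encoded subunits, among them Cyc1 of complex III, are also outside it by their symbols.

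Total counts were 41623899 to 47212982 per library, and the members took 1.88% to 2.01% of them. Neuronal markers fitted the labelled tissue: all 6 excitatory neuron markers and all 6 general neuronal markers had counts in every library, at summed levels of 3378 to 3716 and 9552 to 9911 CPM (counts per 1000000 of the library's total). In bulk tissue, fewer cells of a type and less RNA per cell cannot be told apart. The non-stress libraries were not alike. On principal component 1 of all tested genes (34.5% of the variance), non-stress 2 and 3 lay at 37.4 and 27.4, whereas non-stress 1 lay at -11.7, near the stress libraries at -20.4 to -14.9.

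Levels were compared between genes per transcript length, as counts per kilobase scaled to a sum of 1000000 in each library, using GENCODE transcripts (mean ± SD of all 6 libraries). The catalytic beta subunit of ATP synthase, Atp5b, had the highest level of the set at 2480 ± 43.8. Cox4i1, the common form of complex IV subunit 4, followed at 2040 ± 74.4. Among the members, the leading genes of the other complexes were Ndufa4, counted with complex I by its name, at 1280 ± 84.6, the complex III core protein Uqcrc1 at 798 ± 34.1 and the iron-sulphur subunit of succinate dehydrogenase, Sdhb, at 651 ± 14.6. Cyc1 of complex III is outside the rule and was not ranked. Its mean was 813 CPM in non-stress and 654 in stress, against 702 and 678 for Uqcrc1. Of the genes outside the alternative complex IV isoforms, Sdhc, a membrane anchor of complex II, was the lowest at 62.2 ± 4.2 for a transcript of 3171 bases, and such levels depend on which transcript's length is used.

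Tissue-restricted isoforms of complex IV were at the bottom of the range. Cox6a2, the heart and skeletal muscle form that is also known from fast-spiking interneurons, stood at 13.4 ± 0.961 per length, which was 0.839% ± 0.0548 of the Cox6a pair in non-stress and 0.878% ± 0.0207 in stress (SD, n = 3). Cox7a1, another heart and muscle form, and Cox4i2, known from lung, were at 3.21 ± 0.718 and 3.07 ± 0.477. The testis forms Cox6b2 and Cox7b2 were at 2.40 ± 0.517 and 1.11 ± 0.278. Cox8b, a muscle form, was counted 3, 10 and 6 times without stress and 12, 4 and 9 times with stress. Cox8c had a count of 0 in each library, which allows up to 3 counts, or 0.0635 to 0.0721 CPM. Such limits cover counting error only, since sequencing reads without molecular identifiers are not independent molecules. Cox8b and Cox8c did not pass the filter on low counts and were not tested, so 81 of the 83 members entered the comparison.

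**Figure D1:**
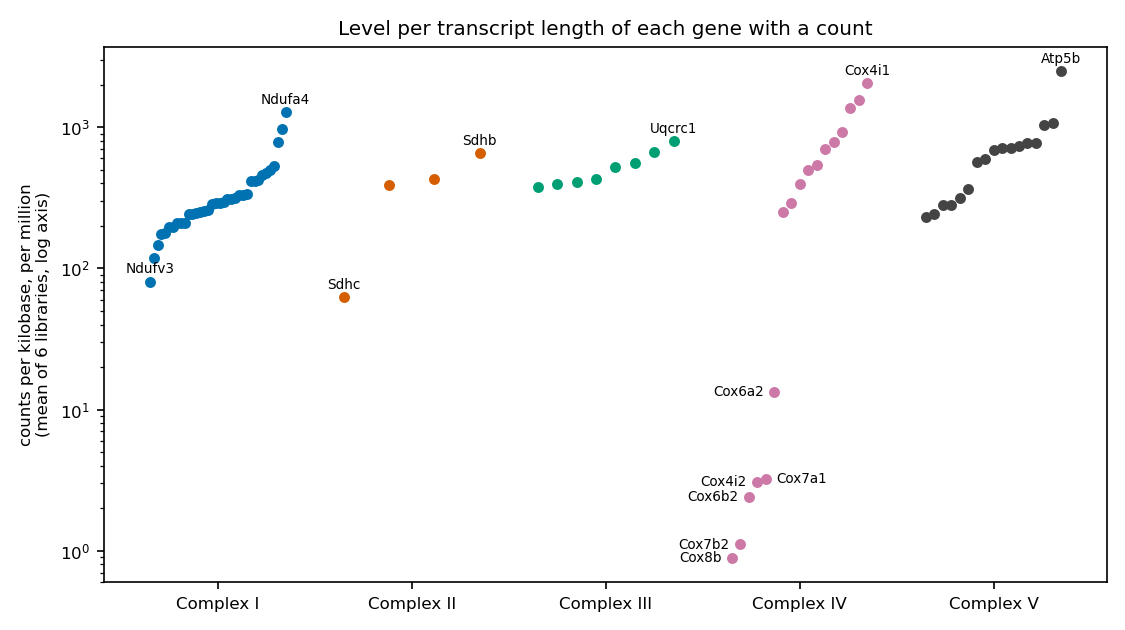
Level per transcript length of the 82 genes with a count, by complex (y axis: counts per kilobase scaled to a sum of 1000000, mean of 6 libraries, log axis; each point is 1 gene, ordered by level within its complex). The alternative complex IV isoforms lie between 0.888 and 13.4, while the other genes lie between 62.2 (Sdhc) and 2480 (Atp5b).

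The 3 genes of the c ring of ATP synthase, Atp5g1, Atp5g2 and Atp5g3, encode the same mature proton-carrying protein with different import sequences. Of their summed level per length, Atp5g3 made up 56.2%, 54.1% and 56.8% without stress and 57.2%, 56.5% and 55.6% with stress. Atp5g1 made up 29.6% to 32.5% and Atp5g2 12.8% to 13.5%, and the groups overlapped for all 3.

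Promoters were searched for binding motifs of transcription factors known to act on respiratory genes, and most held none of the 4 motifs tried. RefSeq windows (GRCm38.p6) from 250 bases before to 50 after the gene's start were found for 68 of the 83 members, and 4 exact motifs were searched on both strands. The NRF1 motif, a palindrome that is spelled out in the stretches below, was in 7.35% of these members (5 genes: Atp5g2, Atp5k, Cox6a1, Ndufa11 and Uqcrc1), against 1.07% of all 27025 genes with a window. The YY1 motif AAGATGGCG was in 10.3% (7 genes) against 1.64%. The ETS motif CCGGAAGT, which GABP binds, was in 7.35% (5 genes) against 4.31%, and the oestrogen-related receptor motif TCAAGGTCA was in 2.94% (2 genes, Atp5g3 and Sdhd) against 0.466%. At least 1 of the 4 was present in 19 members with a window (27.9%) and 7.21% of all genes, and no test was run. A match describes letters and not a binding site. Stretches of 60 bases are shown for 3 genes to show the motif in place, with the motif in capitals. They are from the gene's own strand and end before its start: Cox6a1 at chr5:115349086-115349145 (minus strand) and Ndufa11 at chr17:56717677-56717736 (plus strand), both with the NRF1 motif, and Uqcr11 at chr10:80406854-80406913 (minus strand) with the ETS motif.
Cox6a1: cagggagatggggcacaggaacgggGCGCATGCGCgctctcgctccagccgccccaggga
Ndufa11: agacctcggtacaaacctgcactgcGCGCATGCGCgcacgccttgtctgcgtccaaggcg
Uqcr11: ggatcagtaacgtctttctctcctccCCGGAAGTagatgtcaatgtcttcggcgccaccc
Fold changes between stress and non-stress were set beside the motifs, with no test. The median log2 fold change was 0.09 in members with the NRF1 motif and 0.09 in those without it, 0.11 and 0.08 for the ETS motif, 0.08 and 0.09 for the YY1 motif, and 0.04 and 0.10 for the receptor motif.

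The comparison of stress with non-stress asks whether expression of these complexes differs after repeated social defeat. No member passed the test, and the fitted differences were small and mostly upward. edgeR's quasi-likelihood test called 0 of 81 members at a Benjamini-Hochberg adjusted p under 0.05, against 1 of 19227 tested genes (0.0052%). The smallest adjusted p of a member was 0.344, for Ndufa1 and Ndufs6. DESeq2 called 0 members (0.999% of the genes to which it gave an adjusted p) and limma-voom 0 (0.0104%). The fitted log2 fold change was above 0 in 71 of 81 members (87.7%), compared with 49.8% of all tested genes. Its median was 0.08 over the members and 0.00 over all genes, and the members with a mean of at least 1.5 CPM had standard errors of 0.03 to 0.11.

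Without adjustment, 24 members were higher at p under 0.05 (29.6%, where 5.8% of all tested genes were) and 1 was lower, Sdhc (6.27% of all tested genes were lower at that p). DESeq2 gave 26 such members in either direction (6.66% of all genes) and limma-voom 24 higher (6.54%) and 1 lower (6.02%). In 11 members every stress library lay above every non-stress library, or 13.6% against 8.43% of tested genes, and in 2 (Ndufs1 and Sdhc) every stress library lay below, against 9.43%. The count of 24 depended on single libraries. It was 5 without stress 1 (3.16% of all genes) and 2 without stress 2 (3.01%), 36 without stress 3 (4.31%), and 16 without non-stress 2 (4.08%). Without non-stress 1 or non-stress 3 it was 22 (9.84%) and 30 (4.69%). No member passed the adjusted threshold in these 6 fits, in which 3.85% of all genes did without non-stress 1, 0.0102% without non-stress 2, 0.00508% without non-stress 3, 0.0102% without stress 1, 0.0051% without stress 2 and 0.0051% without stress 3.

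The libraries did not divide cleanly by group. Set against its mean over the 6 libraries, the median member stood at -0.063, -0.069 and 0.002 on the log2 scale in non-stress 1, 2 and 3, and at 0.072, 0.079 and -0.020 in stress 1, 2 and 3. Stress 1 and 2 were thus high and non-stress 1 and 2 low, and stress 3 lay below non-stress 3. The same order held for complex I (0.072, 0.085 and -0.024 in the stress libraries), complex III (0.075, 0.099 and -0.011), complex IV (0.101, 0.104 and -0.020) and complex V (0.063, 0.071 and -0.015). Complex II differed. Its median was highest in non-stress 2 at 0.068, and the stress libraries stood at 0.001, -0.018 and -0.037.

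**Figure D2:**
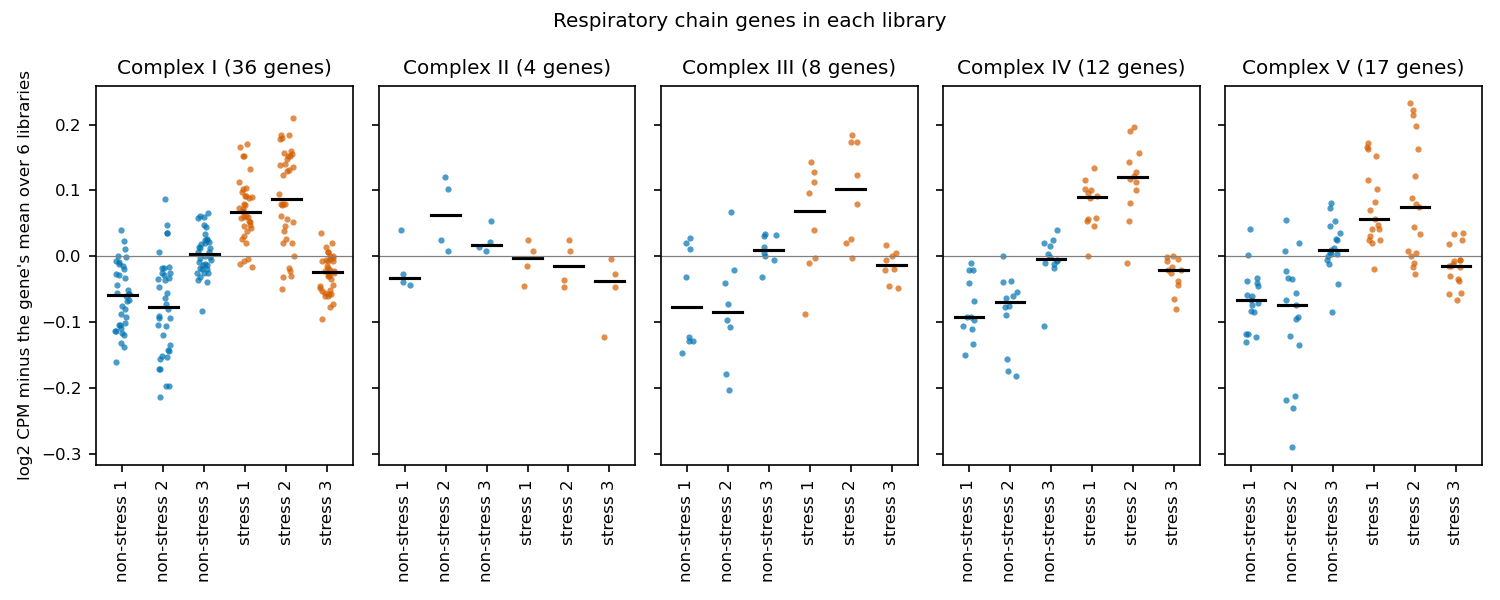
Log2 CPM of each gene minus its mean over the 6 libraries, by complex and library (points: the 77 tested genes with a mean of at least 1.5 CPM; black bars: median of the genes shown; blue, non-stress; orange, stress). In complexes I, III, IV and V the genes of stress 1 and 2 sit mostly above 0 and those of non-stress 1 and 2 mostly below, with non-stress 3 and stress 3 near 0.

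Complex I, which oxidises NADH, had a median log2 fold change of 0.08 over its 36 members. Its 7 catalytic core genes, whose proteins carry the flavin, the iron-sulphur clusters and the quinone site, had fold changes near 0: the median was 0.003, the range was -0.05 to 0.03 and 4 of 7 were above 0. Ndufs1, the largest iron-sulphur subunit (chromosome 1, 63143592 to 63176822, GRCm38), stood at 247, 249 and 245 CPM in non-stress and 241, 238 and 238 in stress. All its stress values were lower, but the difference was small (log2 fold change -0.05, SE 0.04, edgeR adjusted p = 0.615). Ndufv1, the NADH-binding subunit, stood at 381, 421 and 402 CPM against 395, 390 and 390. Its groups overlapped, with a log2 fold change of -0.04 (SE 0.04, edgeR adjusted p = 0.781).

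The 29 accessory genes of complex I, which surround the core and are needed for assembly and stability, had a median log2 fold change of 0.12, and 27 of 29 were above 0. Ndufa1, a small membrane protein gene (chromosome X, 37187588 to 37191238), stood at 47.3, 45.6 and 53.1 CPM in non-stress and 58.8, 61.2 and 53.1 in stress. Non-stress 3 and stress 3 were level to the digits shown. Its log2 fold change was 0.25 (SE 0.07, adjusted p = 0.344 by edgeR, unadjusted 0.00702). Ndufs6, of the NADH-oxidising module (chromosome 13, 73319876 to 73328482), stood at 66.4, 62.5 and 70.4 CPM against 80.4, 78.5 and 73.4. Here the lowest stress library stayed above the highest non-stress library, and the log2 fold change was 0.22 (SE 0.06, edgeR adjusted p = 0.344). Ndufs6 had the smallest adjusted p of the members in DESeq2 (0.0618) and without non-stress 1 (0.096).

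Ndufa13, also known as GRIM-19, stood at 126, 129 and 133 CPM in non-stress and 143, 152 and 137 in stress (log2 fold change 0.15, SE 0.05, edgeR adjusted p = 0.351). It kept an unadjusted p of 0.00316 once trends on GC content and transcript length were taken out of each library (log2 fold change 0.19, adjusted p = 0.288 by edgeR). Ndufa7, another accessory gene, stood at 67.3, 64.7 and 70.2 CPM against 76.2, 81.2 and 70.6, a log2 fold change of 0.17. Ndufa4 overlapped between the groups, with 290, 273 and 304 CPM against 326, 331 and 289. The accessory members below 0 were Ndufa10 (-0.03) and Ndufa9 (-0.01). Without Ndufa4 the median of complex I was 0.080, and with it complex IV had a median of 0.124, as before.

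Complex II, succinate dehydrogenase, links the citric acid cycle to the chain, and 2 of its 4 genes were above 0. Their median log2 fold change was -0.025, and 0.006 without non-stress 2, and their summed CPM was 1413 ± 48.0 in non-stress and 1380 ± 16.2 in stress (SD, n = 3). Sdhc (chromosome 1, 171129157 to 171150640), which anchors the enzyme in the membrane and helps to bind haem and quinone, stood at 106, 112 and 107 CPM in non-stress and 99.9, 99.8 and 94.7 in stress. Every stress value was lower, with a log2 fold change of -0.14 (SE 0.05, edgeR adjusted p = 0.351, unadjusted 0.0122). Sdha, the flavoprotein that oxidises succinate, stood at 632, 699 and 661 CPM against 645, 635 and 639 (-0.05, SE 0.04). Sdhb stood at 379, 396 and 393 CPM against 396, 396 and 377, and Sdhd, the other anchor, at 247, 253 and 253 against 253, 253 and 251. These 3 overlapped, and the fold changes of Sdhb and Sdhd were 0.00 and 0.01.

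As a share of the summed CPM of all members, complex II made up 7.25%, 7.67% and 7.19% in non-stress and 6.94%, 6.87% and 7.05% in stress, so every stress library was lower. A share also moves with the sum of the other complexes. The summed CPM of complex II itself overlapped, at 1364, 1460 and 1414 in non-stress and 1393, 1384 and 1362 in stress. Complex IV made up 16.3%, 16.3% and 16.7% against 17.0%, 17.4% and 16.6%, and overlapped. Complexes I, III and V made up 28.7% to 29.3%, 9.82% to 10.3% and 36.3% to 37.5% over the 6 libraries. Cyc1 of complex III, outside the rule, is not in these sums, and no test was run on them.

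Complex III, which passes electrons from ubiquinol to cytochrome c, had larger fitted values in its small subunits than in its large ones, a gap that was mostly gone with the GC and length trends described below taken out (medians of 0.014 and -0.019). The large core proteins Uqcrc1 and Uqcrc2 and the Rieske iron-sulphur protein Uqcrfs1 had log2 fold changes of -0.05, 0.01 and 0.01. Cyc1, a core part of complex III outside the rule, had -0.31 (SE 0.15), was uneven among the non-stress libraries and is not in these medians or sums. Uqcrc1 stood at 695, 722 and 687 CPM in non-stress and 649, 688 and 698 in stress. The 5 small subunits had a median of 0.17 and were all above 0, and their summed CPM was 576.4, 576.7 and 629.1 in non-stress and 670.3, 691.3 and 612.4 in stress. Uqcr10 stood at 116, 112 and 128 CPM against 140, 143 and 125 (log2 fold change 0.20, SE 0.06, edgeR adjusted p = 0.351). Uqcr11, whose promoter stretch is printed above, stood at 109, 112 and 121 CPM against 129, 136 and 119 (0.17, SE 0.06, edgeR adjusted p = 0.354). Uqcrb, which lies near the quinone site, and the hinge protein gene Uqcrh had log2 fold changes of 0.18 and 0.12. In each of the 8 genes the groups overlapped, and in Uqcr10, Uqcr11, Uqcrb and Uqcrh it was stress 3 that fell below non-stress 3.

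**Figure D3:**
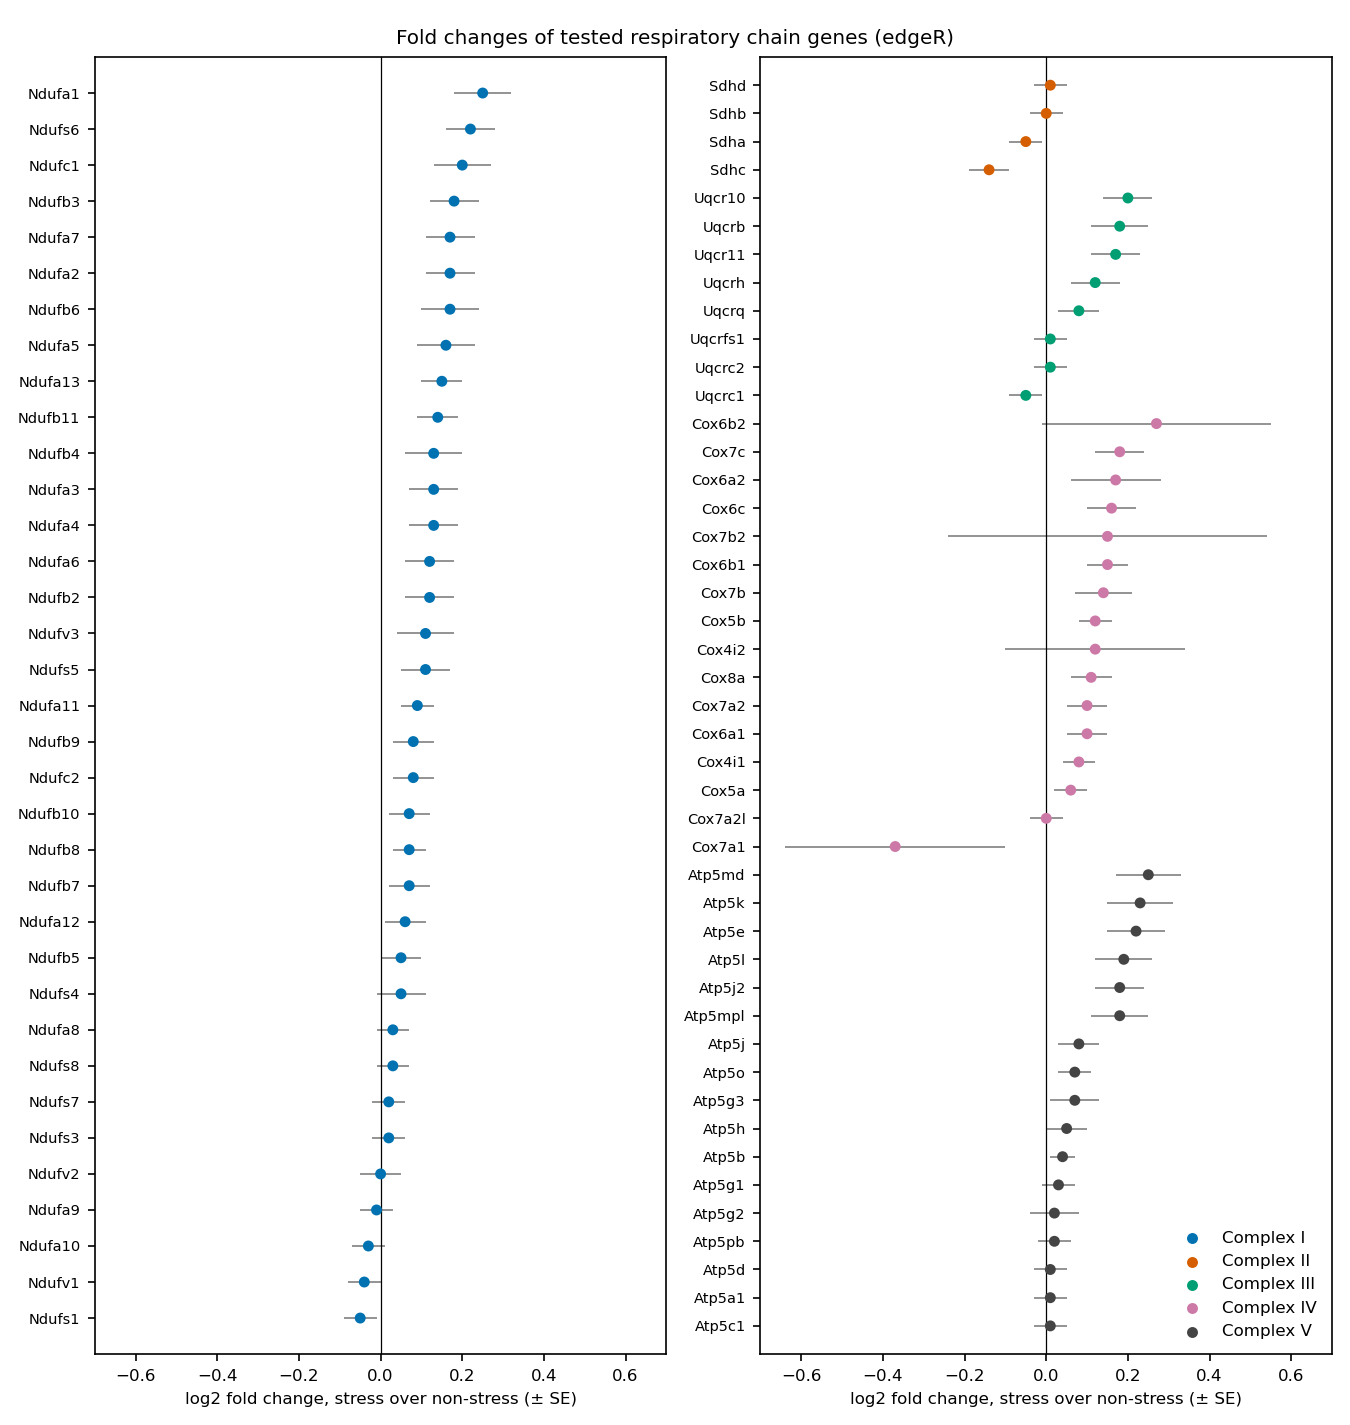
Fitted log2 fold change of stress over non-stress with its standard error for 80 of the 81 tested genes, ordered within complexes (left: complex I; right: complexes II to V). Points run from -0.37 (Cox7a1) to 0.27 (Cox6b2), both weakly expressed isoforms with wide errors, and no gene passed the adjusted threshold.

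Complex IV, cytochrome c oxidase, had a median log2 fold change of 0.12 over 16 tested genes, with 14 above 0. The 11 genes grouped as its common subunits, with Cox7a2l among them and Ndufa4 not, summed to 3060, 3086 and 3270 CPM in non-stress and 3406, 3495 and 3194 in stress. Cox6b1, which lies on the outer face and joins the dimer (chromosome 7, 30616971 to 30626114), stood at 202, 215 and 223 CPM against 239, 245 and 224. The groups just failed to overlap, with a log2 fold change of 0.15 (SE 0.05, edgeR adjusted p = 0.351). Cox5b, a zinc-binding subunit, stood at 210, 213 and 223 CPM against 239, 241 and 224 (0.12, SE 0.04, edgeR adjusted p = 0.363) and was likewise separated only narrowly in stress 3. Cox7c and Cox6c, both small membrane subunits, overlapped, with log2 fold changes of 0.18 and 0.16.

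Of the common forms with an alternative isoform, Cox6b1 was separated as described, while Cox4i1 (0.08), Cox6a1 (0.10), Cox7a2 (0.10), Cox7b (0.14) and Cox8a (0.11) overlapped between the groups. Cox7a2l was level at 140, 141 and 143 CPM in non-stress and 141, 140 and 141 in stress. Cox6a2 stood at 4.43, 4.64 and 4.43 CPM against 5.17, 5.32 and 4.70. All its stress values were higher, with a log2 fold change of 0.17 (SE 0.11, edgeR adjusted p = 0.554). The 6 markers listed for parvalbumin interneurons, a cell type known for Cox6a2, summed to 665.4, 723.9 and 734.6 CPM in non-stress and 676.8, 672.9 and 667.2 in stress. Gad1 was the largest part of this sum (318 to 361 CPM), and Pvalb itself stood at 79.0 to 97.5 CPM and overlapped. Of the 6, Erbb4 alone was above 0 (0.24). Syt2 and Gad1 were lower at an unadjusted p under 0.05 (edgeR), and none was called. Cox7a1 stood at 0.603, 0.911 and 0.715 CPM against 0.505, 0.575 and 0.646 (log2 fold change -0.37, SE 0.27, edgeR adjusted p = 0.595). Cox4i2, Cox6b2 and Cox7b2 had log2 fold changes of 0.12, 0.27 and 0.15 with standard errors of 0.22, 0.28 and 0.39.

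Complex V, ATP synthase, was above 0 in all 17 genes, and in 9 with the GC and length trends taken out. The median was 0.014 in the F1 head and 0.175 in the stalk and membrane subunits, but 0.036 and 0.013 with the trends taken out, so the order of these parts turned. Of the catalytic F1 head, Atp5a1, Atp5b, Atp5c1 and Atp5d had log2 fold changes of 0.01 to 0.04. Atp5b stood at 2410, 2450 and 2510 CPM in non-stress and 2540, 2470 and 2550 in stress. The remaining F1 gene, Atp5e, encodes the small epsilon subunit (chromosome 2, 174461075 to 174464101) and stood at 57.0, 53.2 and 62.0 CPM against 65.5, 72.7 and 62.7. Its groups did not overlap, and its log2 fold change was 0.22 (SE 0.07, edgeR adjusted p = 0.351).

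Small membrane subunits of ATP synthase, several of which hold its dimers together, had the larger values. Atp5md, encoding DAPIT, stood at 124, 110 and 137 CPM in non-stress and 151, 157 and 134 in stress (log2 fold change 0.25, SE 0.08, edgeR adjusted p = 0.351). Atp5k, encoding subunit e, stood at 49.8, 47.0 and 54.5 CPM against 61.0, 63.2 and 53.2 (0.23, SE 0.08, edgeR adjusted p = 0.351). Atp5j2, encoding subunit f, stood at 105, 107 and 111 CPM against 127, 128 and 110 (0.18, SE 0.06). In all 3, stress 3 fell among the non-stress values. The stalk subunit gene Atp5pb and the c-ring genes Atp5g1, Atp5g2 and Atp5g3 had log2 fold changes of 0.02 to 0.07.

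**Figure D4:**
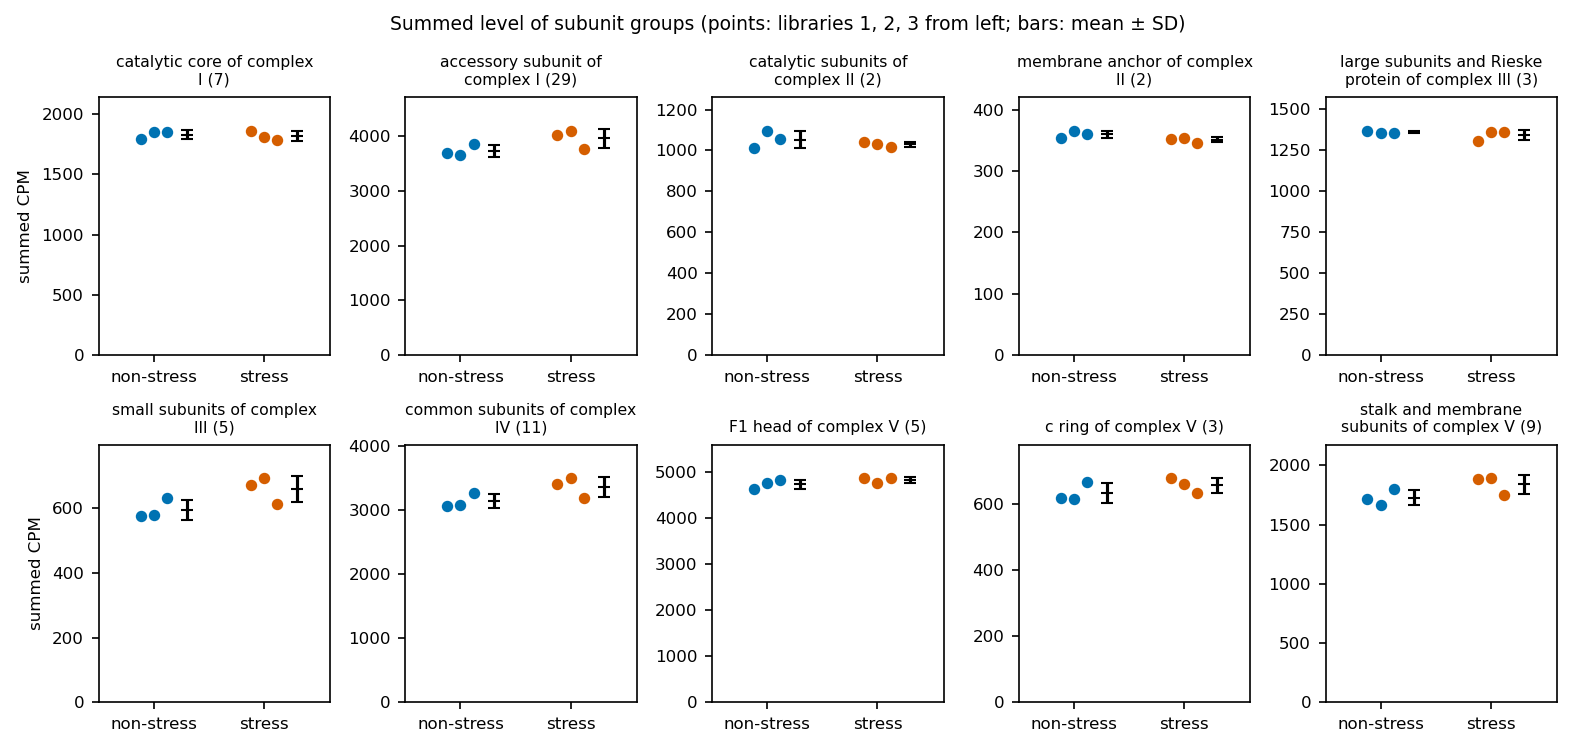
Summed CPM of subunit groups in each library (points: libraries 1, 2 and 3 from left; black bars: mean ± SD of 3 libraries; y axes start at 0; number of genes in brackets). The small subunits of complex III have means of 594.1 and 658.0 with overlap between groups, and the core of complex I has 1830 and 1817.

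Across members, the fold change followed transcript length, which the rule did not use. The Spearman correlation of log2 fold change with length was -0.69 over 81 genes, given as a description, since the genes share the same 6 libraries. Over 17313 tested genes with a length it was -0.16. With GC content the correlation was -0.05 in the members and -0.31 over those 17313 genes, so over all genes GC content had the larger one. The 39 tested members shorter than the set's median of 704 bases had a median log2 fold change of 0.15, with 38 above 0, and the 42 others had 0.03, with 33 above 0. Short transcripts in general were also higher in stress. Of all 664 tested genes under 500 bases, 77.3% were above 0 with a median of 0.15, beside 0.18 in the 13 members of that length. From 500 to 1000 bases the medians were 0.07 for all 1769 genes and 0.12 for 43 members, from 1000 to 2000 bases 0.00 for 4053 genes and 0.01 for 20 members, and from 2000 to 4000 bases -0.03 for 6433 genes and -0.05 for 5 members. By library, all genes under 500 bases stood at -0.045, -0.145 and -0.007 in non-stress 1, 2 and 3 and at 0.075, 0.149 and 0.020 in stress 1, 2 and 3. As in the members, stress 1 and 2 were the highest and non-stress 1 and 2 the lowest, but here stress 3 lay above non-stress 3, whereas in the members it lay below.

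When smooth trends on GC content and transcript length, estimated on all tested genes, were taken out of each library, the members' median log2 fold change was 0.014 and 51 of 81 were above 0. The number higher at an unadjusted p under 0.05 was then 6 (5.45% of all genes) and the number lower 2 (6.17%). The medians became 0.019 for complex I, -0.052 for complex II, -0.001 for complex III, 0.028 for complex IV and 0.013 for complex V. In complex I the accessory subunits then had 0.029 and the core 0.006. Ndufs6 (0.15, unadjusted p = 0.00954), Ndufa13, Uqcr10 (0.12), Uqcr11 (0.11), Atp5e (0.13) and Atp5k (0.13) were the 6 that stayed higher at that level, and Sdhc (-0.14, unadjusted p = 0.00772) and Atp5c1 (-0.07) the 2 that were lower. The step did not free the members of these trends. Their Spearman correlation of log2 fold change with GC content was then 0.46, against -0.05 before, and with length -0.3. The 6 higher members had a GC content of 53.9% to 60.4%, and Sdhc and Atp5c1 had 48.7% and 47.9%. No member passed the adjusted threshold (0.0156% of all genes did; edgeR).

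**Figure D5:**
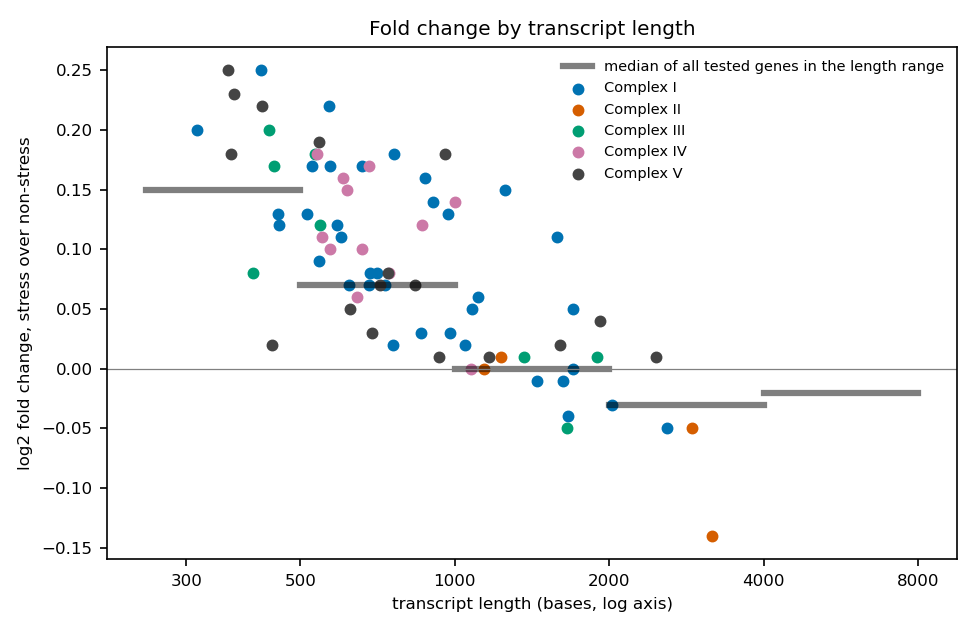
Log2 fold change of stress over non-stress against transcript length (x axis: bases, log axis; coloured points: the 77 tested genes with a mean of at least 1.5 CPM, by complex; grey bars: median of all tested genes in each length range). Points fall from about the height of Ndufa1 (0.25) at the short end to Sdhc (-0.14) at the long end, and the grey bars fall from 0.15 to -0.03 and end at -0.02.

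Genes around the chain were read from lists in the same fit. All 13 subunits encoded by the mitochondrial genome were above 0, with a median log2 fold change of 0.30. At an unadjusted p under 0.05, 11 were higher (84.6%, against 5.8% of all tested genes), although 0 passed the adjusted threshold (edgeR). The 13 subunits summed to 24000, 17640 and 23640 CPM in non-stress and 26700, 25340 and 25110 in stress. Non-stress 2 was thus the lowest, and every stress library was higher than every non-stress library. With the GC and length trends taken out their median was -0.065, with 2 of 13 above 0. Among 8 further subunits and carriers, none called, Atpif1, the inhibitor of ATP synthase, stood at 211, 196 and 217 CPM against 239, 255 and 211 (log2 fold change 0.18, edgeR adjusted p = 0.386). Cytochrome c1, encoded by Cyc1 and a core part of complex III, was uneven among the non-stress libraries, at 1060, 717 and 657 CPM against 601, 635 and 728 in stress (-0.31, SE 0.15).

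Upstream and neighbouring pathways were read for comparison. Of 17 regulators of mitochondrial biogenesis 5 were above 0, and the median was -0.03. The 3 at an unadjusted p under 0.05 were the nuclear receptor gene Esrra (-0.32, edgeR adjusted p = 0.345), the related Esrrg (-0.18) and the coactivator gene Ppargc1b (-0.20). Citric acid cycle genes had a median of -0.02 (7 of 16 above 0) and glycolysis genes -0.02 (4 of 16). Of the glycolysis genes 3 were lower at an unadjusted p under 0.05, and of the citric acid cycle genes 0 were higher or lower. Assembly factors had medians of 0.02 for complex I (9 of 15 above 0, 1 higher at that p) and 0.03 for complexes II to V (20 of 30, 2 higher). Mitochondrial import and outer membrane genes had 0.03 (14 of 18, 2 higher) and mitochondrial ribosomal proteins 0.02 (54 of 78, 3 higher and 1 lower). Cytosolic ribosomal proteins, with a median transcript length of 761 bases, had 0.13 (83 of 87, 34 higher and 1 lower). Higher at that p were 39.1% of cytosolic and 3.85% of mitochondrial ribosomal proteins, against 5.8% of all tested genes (6.27% were lower). edgeR called 0 genes of each of these lists. With the GC and length trends taken out, glycolysis genes had a median of 0.012 (9 of 16 above 0, 1 higher and 0 lower). Citric acid cycle genes had -0.019 (4 of 16, 1 lower) and regulators -0.02 (6 of 17, 2 lower). Mitochondrial ribosomal proteins had -0.012 (32 of 78, 3 lower) and cytosolic ones 0.045 (62 of 87, 11 higher and 1 lower). Over all tested genes 5.45% were then higher and 6.17% lower at an unadjusted p under 0.05.

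Markers of other cells were summed in each library. Markers of astrocytes (1430 to 1502 CPM), oligodendrocytes (6038 to 7495), microglia (483.4 to 514.2), endothelial cells (194.4 to 208.2), meninges (6.905 to 10.83), choroid plexus and ependyma (4.612 to 13.83), striatum (158.6 to 194.1) and red blood cells (359.8 to 473.9) overlapped between the groups. The mural cell sum also overlapped (149.0 to 152.7 CPM against 141.7 to 149.7). The most abundant genes set such sums, and single genes could differ. Of 5 mural genes 1 was above 0 (Acta2, 0.27), and Rgs5 and Kcnj8 were lower in every stress library. So was Drd2 of the striatum list, in which 2 of 5 genes were above 0 (9.43% of all tested genes lay lower). Gfap of the astrocyte list stood at 26.6, 5.32 and 4.74 CPM in non-stress and 13.2, 12.5 and 14.5 in stress. The sum of oligodendrocyte precursor markers was higher in every stress library (37.25 to 37.96 against 33.61 to 35.08), as was that of striated muscle markers (19.58 to 20.88 against 18.49 to 19.21). Acta1 was most of the muscle sum (14.0 to 15.3 CPM in stress, 12.7 to 13.3 in non-stress). The muscle genes did not move together: of 5 tested, 3 were above 0 and 2 below. Mb was lower in every stress library (0.12 to 0.184 CPM against 0.275 to 0.381). Pituitary markers were highest in stress 1 and 2, the libraries in which the members were also highest: the 7 genes summed to 3.086, 1.631 and 1.263 CPM in non-stress and 12.97, 14.02 and 3.788 in stress. The growth hormone gene Gh was most of the sum in stress 1 and 2 (8.10 and 9.21 CPM), and Pomc in the other libraries (1.10 to 2.63 CPM). Fshb was at 0 in every library and Prl at 0 in the non-stress ones. Lhb went the other way, with counts of 5, 4 and 5 in non-stress and 0, 0 and 0 in stress. Cga (counts of 4, 0 and 2 against 3, 12 and 0) and Tshb (7, 0 and 0 against 4, 10 and 15) overlapped. The part of these tissues in the members' values was not tested.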

How the data were processed

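The authors deposited whole-number counts per gene for 6 libraries, which were used unchanged. Per the labels' protocols, libraries were made from total RNA with a SMARTer low-input kit. Per the submitters' processing notes, reads went through Trimmomatic 0.38, HISAT2 and StringTie on GRCm38 (mm10). How reads were counted, with regard to strand and multiple mapping, is not given in the sources used here, so reads may be shared with the many pseudogenes of these short genes. Of 45777 genes, filterByExpr kept 19227. Groups were compared by edgeR 4.0.16 (TMM, quasi-likelihood test, group as the single term, Benjamini-Hochberg over all tested genes, threshold 0.05, two-sided) in R 4.3.3, with DESeq2 1.42.0 and limma-voom (limma 3.58.1) as alternatives. Steps were tested on simulated data. CPM use the deposited totals, and log2 CPM a prior count of 2. Transcript length (median over the principal GENCODE M21 transcripts) and GC content were found for 83 members and 90.0% of tested genes, and positions for 83 members in NCBI's GRCm38.p6 table. The trends were splines with 5 degrees of freedom. Genes were named as follows: per complex, the 4 smallest p-values and the highest level, then isoforms of 1 subunit and members below 0; others named were chosen after their values were seen. The labels state no pairing by replicate number, and the main test used none. Values of 1 member are not reported here, although it counts in the totals and medians. The members and lists were chosen with earlier results of these data known.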

Additional observations from a re-analysis of the deposited data

How the results depend on the processing

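edgeR's count of 0 members called held with other size factors, other filters, DESeq2, limma-voom, the trends taken out, an adjusted p under 0.1 and each library left out; at an unadjusted p under 0.05 it was 25. Over all genes the count of 1 became 107 in DESeq2, 2 in limma-voom, 3 with trends taken out, 5 at an adjusted p under 0.1, 2322 unadjusted and 1 to 756 with 1 library left out (756 without non-stress 1). Members whose groups do not overlap numbered 13, where 8.43% of all tested genes had every stress library above and 9.43% every one below. With 1 library left out the count was 13 to 56 (44 without non-stress 3, 56 without stress 3). Fewer libraries are compared there, so groups separate more easily in any gene. The share over all genes is not given for these fits, so the rise is not read as a result on the members.

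Taking out the GC and length trends moved the median log2 fold change to 0.014 for all members, 0.019 for complex I, -0.001 for complex III, 0.028 for complex IV and 0.013 for complex V, and turned the sign of 28 of 81 members, among them Atp5g1 (-0.03), Atp5g2 (-0.05), Atp5g3 (-0.04), Cox7b (-0.04), Cox7b2 (-0.26), Ndufa10 (0.0), Ndufa4 (-0.04), Ndufv1 (0.02), Sdhb (-0.01), Sdhd (-0.06), Uqcrb (-0.03), Uqcrc1 (0.01) and Uqcrh (-0.01). The cause was not tested. Values near 0 also changed sign for Cox7a2l (0.0 with the filter at 50 counts) and Sdhb (0.0 in DESeq2 and without a filter). With 1 library left out, signs changed within -0.01 to 0.26 for Cox4i2, -0.13 to 0.43 for Cox7b2, 0.0 to 0.07 for Atp5g2, -0.01 to 0.0 for Cox7a2l, -0.02 to 0.0 for Ndufa9, -0.07 to 0.01 for Ndufv1, -0.02 to 0.03 for Sdhb and -0.01 to 0.02 for Sdhd. Cox4i2 and Cox7b2 had standard errors of 0.22 and 0.39.

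Same-numbered libraries did not deviate together (correlations 0.016, -0.0298 and 0.0209), and not every library correlated best with its own number. With 3 libraries per group this check cannot exclude a pairing, and the labels state none. With the replicate block 2 genes were called in all and 0 members. The block together with the trends was not run.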
